A study of Mus musculus and Homo sapiens with 8 samples.

Results

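The genes described here are 10 members of the machinery that controls passage through the G1 phase of the cell cycle: the D cyclins CCND1, CCND2 and CCND3, their kinases CDK4 and CDK6, the inhibitors CDKN1B, CDKN2C and CDKN2D, and the pocket proteins RB1 and RBL1. They were taken by symbol for their place in the pathway, with earlier results of these data known, and all 10 were found among the 20296 genes of the KU812 tables and, as mouse symbols, among the 17097 genes of the LSK tables. Messenger RNA was counted by RNA sequencing in 8 libraries. The human cells were KU812, an established line from chronic myelogenous leukemia with basophil features, which carried a hairpin against ANP32B (shANP32B, n = 2) or the control hairpin shNC (n = 2). In the mouse experiment LSK cells, the bone marrow fraction negative for lineage markers and positive for Sca-1 and c-Kit, came from C57BL/6 animals, either Anp32b-KO (KO, n = 2) or WT (n = 2). ANP32B is an acidic nuclear protein that chaperones histones. Sex and age of the animals, whether the knockout was limited to blood cells, whether animals were pooled, and whether replicates were separate cultures or animals were not stated in the labels. So the p-values speak only of the scatter among the libraries sequenced, and part or all of that scatter may be technical.

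D cyclins are made in answer to growth signals, bind CDK4 or CDK6 and start the phosphorylation of the retinoblastoma protein RB1 and its relatives. Unphosphorylated pocket proteins hold E2F factors and keep the genes of DNA replication low; CDKN2C (p18) and CDKN2D (p19) are INK4 proteins that bind CDK4 and CDK6 alone, and CDKN1B (p27) binds cyclin-CDK complexes more widely. In mouse blood stem cells the D cyclins and CDK6 are known to be needed for expansion, and loss of p18 is known to enlarge the stem cell pool. BCR-ABL, the fusion kinase of chronic myelogenous leukemia, is known to raise D cyclins and to lower p27.

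Promoter windows of 7 of the 10 mouse genes were found in RefSeq tables of build GRCm38.p6, in 9 windows that run from 250 bases before to 50 bases after an annotated start. Ccnd1, Ccnd2 and Rb1 had no window there and were not searched. The E2F words TTTGGCGC, TTTCCCGC, TTTGCCGC and TTTCGCGC were searched on both strands and occur in 2.26% of all 32851 windows; the E-box CACGTG, a word that MYC and related factors bind and that reads the same on both strands, occurs in 7.15%. No word of one kind overlapped one of the other in the windows shown. Of the 9 member windows 1, that of Rbl1, held an E2F word, and 3 held an E-box, those of Cdk4, Cdk6 and 1 of the Cdkn2c windows. Of the member windows, that of Rbl1 (chr2:157204485-157204784, minus strand) alone held an E2F word. That of Cdk4 (chr10:127063285-127063584, plus strand) held the most E-boxes. Both are shown, and were picked with the KU812 results known. Capitals mark the E2F word in Rbl1, whose first base is at position -18 from the start, and the 4 E-boxes in Cdk4, at positions -172, -118, -98 and -11. These are mouse sequences, a match is a description of letters only, and binding was not tested.
Rbl1: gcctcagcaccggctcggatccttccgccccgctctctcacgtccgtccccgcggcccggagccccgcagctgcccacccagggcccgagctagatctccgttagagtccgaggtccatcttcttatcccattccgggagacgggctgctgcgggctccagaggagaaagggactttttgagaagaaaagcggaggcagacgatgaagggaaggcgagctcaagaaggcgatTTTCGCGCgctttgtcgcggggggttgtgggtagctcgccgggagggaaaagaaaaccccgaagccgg
Cdk4: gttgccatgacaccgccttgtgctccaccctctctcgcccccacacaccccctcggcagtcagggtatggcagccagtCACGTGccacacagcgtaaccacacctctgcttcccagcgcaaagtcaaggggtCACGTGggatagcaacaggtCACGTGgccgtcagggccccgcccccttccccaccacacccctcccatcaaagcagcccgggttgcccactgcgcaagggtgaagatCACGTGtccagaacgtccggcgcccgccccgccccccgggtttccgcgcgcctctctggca

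Depth ran from 24416691 to 28209409 counts per library in KU812 cells and from 10549358 to 15683480 in LSK cells. Levels are given as CPM, counts scaled to a common library size with TMM factors, and tests are edgeR's quasi-likelihood test, with p adjusted over all genes tested by Benjamini-Hochberg, and a gene is called at an adjusted p under 0.05. The target was lower in every perturbed library: ANP32B stood at 40.4 and 38.2 CPM in shANP32B, against 250.2 and 286 CPM in shNC, and Anp32b at 201 and 249 CPM in KO, against 794 and 730.4 CPM in WT. The labels do not name the deleted exons of Anp32b, and counts from exons outside the deletion would remain in KO libraries. KU812 libraries had the basophil genes HDC, FCER1A and CPA3 and the factors GATA1 and GATA2, each at no less than 188 CPM. The other KU812 features stood at no less than 275 (KIT), 147 (ABL1) and 53.2 CPM (BCR). LSK libraries had Kit (335 to 399 CPM) and Flt3 (441 to 492 CPM), with Ly6a, which encodes Sca-1, at 37.8 to 60.2 CPM. Of the other gate genes Cd34 stood highest (506 to 746 CPM) and Slamf1 lowest (7.21 to 8.78 CPM). The neutrophil genes Ngp (190 to 395 CPM) and S100a9 (238 to 368 CPM) stood above Ly6a in the LSK libraries. In bulk RNA, fewer cells of a type and less RNA per cell cannot be told apart.

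With ANP32B knocked down, the make-up of D cyclin RNA in KU812 cells shifted. Cyclin D1 rose 1.51-fold, cyclin D3 fell to 162 ± 17.0 CPM in shANP32B against 245 ± 12.9 CPM in shNC (SD, n = 2 each), and the sparse cyclin D2 rose. The inhibitor p18 rose 1.55-fold and the pocket protein p107, encoded by RBL1, fell, while no change was called for CDK4, CDK6, CDKN1B, CDKN2D or RB1. In all, 5 of 10 members were called, 3 higher and 2 lower, where 16.6% of all 16529 genes tested were called, 7.53% higher and 9.06% lower. Because the genes were picked with results known, the count describes them and is no independent test of the group. The groups did not overlap in 6 of the 10, where they did not overlap in 58.5% of all genes tested. The median log2 fold change of the members was 0.10, against 0.0041 over all genes, and the median of its size without sign was 0.44, against 0.30.

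**Figure D1:**
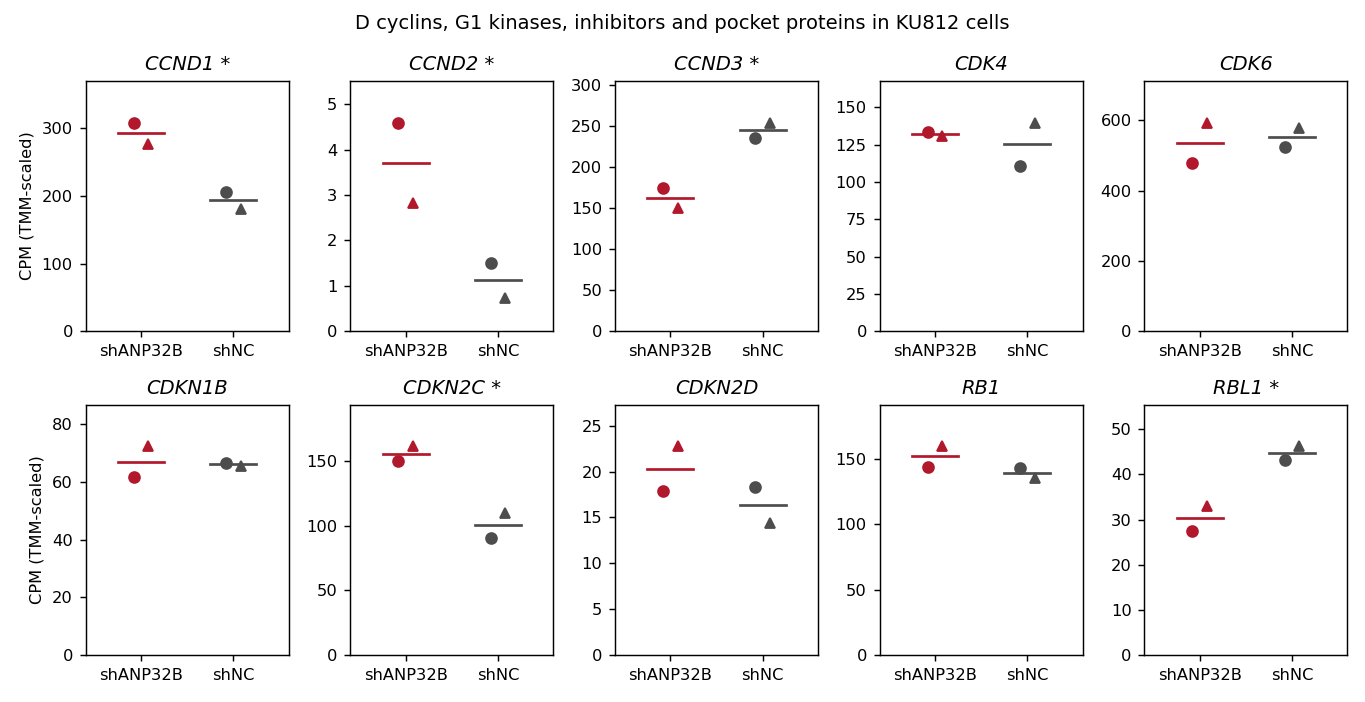
Level of each gene in CPM (vertical axes, each from 0) in the shANP32B and shNC libraries of KU812 cells. Circles are replicate 1, triangles replicate 2, lines group means, and stars mark genes called at an adjusted p under 0.05; CCND1, CCND2 and CDKN2C lie higher in both shANP32B libraries, CCND3 and RBL1 lower.

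CCND1, the D cyclin first linked to growth factor signalling, was read at 308 and 277 CPM in shANP32B, against 206 and 181 CPM in shNC. The lower shANP32B library stood well above the higher shNC library. The log2 fold change was 0.60 (SE 0.11, 95% confidence interval 0.36 to 0.84, adjusted p = 0.00277, edgeR). CCND3, the D cyclin most tied to lymphoid and erythroid cells, was read at 174 and 150.3 CPM in shANP32B, against 236 and 254 CPM in shNC. Its groups did not overlap either, in the opposite direction, at a log2 fold change of -0.59 (SE 0.11, interval -0.84 to -0.35, adjusted p = 0.0032, edgeR).

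CCND2 was nearly silent in these cells. It had 119 and 70 counts in shANP32B (4.59 and 2.82 CPM), against 42 and 18 counts in shNC (1.502 and 0.73 CPM). Every library was above the floor of 3 counts, and the groups did not overlap, but the spread within each group was wide. The log2 fold change was 1.72 (SE 0.45, interval 0.74 to 2.70, adjusted p = 0.0199, edgeR). Without the first shANP32B library it was 1.32 and no longer called (adjusted p = 0.178; the range over all alternatives was 7.41e-05 to 0.178).

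The summed D cyclins hid this exchange. CCND1, CCND2 and CCND3 together made 487 and 430.5 CPM in shANP32B, against 443 and 436 CPM in shNC, and the groups overlapped. CCND1 made up 63.3% (95% Wilson interval 62.4 to 64.1) and 64.4% (63.5 to 65.3) of these counts in the shANP32B libraries, against 46.4% (45.5 to 47.3) and 41.6% (40.6 to 42.5) in the shNC libraries. CCND3 made up 35.8% (35.0 to 36.6) and 34.9% (34.0 to 35.8) in shANP32B, against 53.3% (52.4 to 54.1) and 58.3% (57.3 to 59.2) in shNC. The intervals cover counting error only, and the shares are of counts, not corrected for transcript length, so they compare libraries and not cyclins. Within a library, CCND1 had 1.77 and 1.84 counts for each count of CCND3 in shANP32B, against 0.872 and 0.714 in shNC, a 2.28-fold higher ratio.

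**Figure D2:**
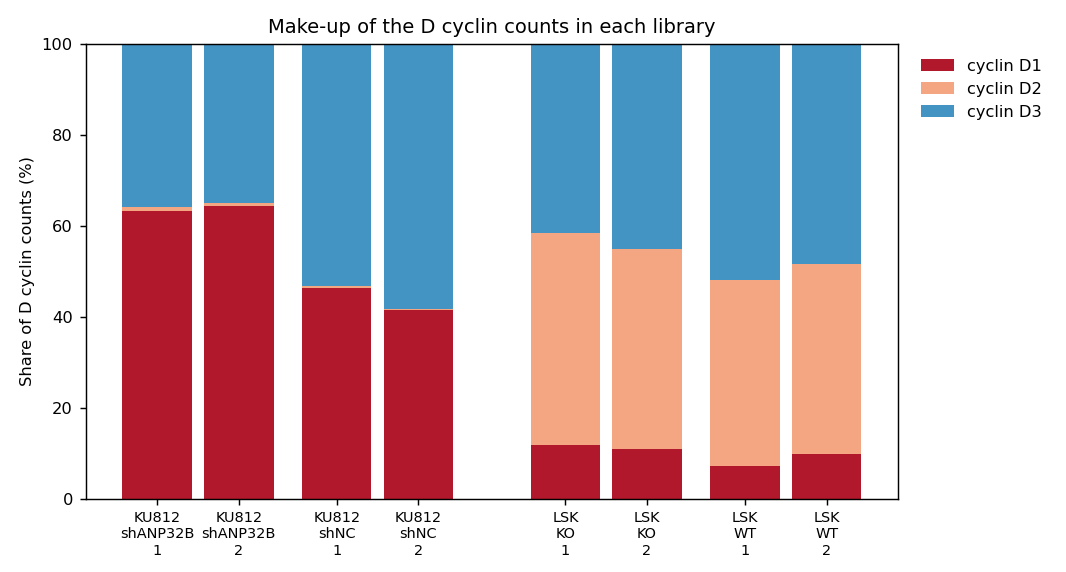
Share of each D cyclin in the summed D cyclin counts (vertical axis, %) in each of the 8 libraries. In KU812 cells the CCND1 share was 63.3% and 64.4% in shANP32B against 46.4% and 41.6% in shNC; in LSK cells the Ccnd3 share was 41.6% and 45.0% in KO against 51.9% and 48.4% in WT.

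Neither kinase was called. CDK4, a catalytic partner of the D cyclins, was read at 134 and 131 CPM in shANP32B, against 111 and 139.7 CPM in shNC, and its shANP32B libraries lay between those of shNC. Its log2 fold change was 0.079 with an interval of -0.19 to 0.35. CDK6, the other partner and the one with kinase-independent roles in blood cells, was read at 478 and 593 CPM in shANP32B, against 525 and 579 CPM in shNC. The shANP32B libraries lay to either side of the shNC libraries, and the log2 fold change was -0.043 (interval -0.29 to 0.20). The intervals leave room for changes of up to these sizes.

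Among the inhibitors, CDKN2C was read at 149.9 and 161 CPM in shANP32B, against 90.8 and 109.8 CPM in shNC. Its groups did not overlap, and the log2 fold change was 0.63 (SE 0.12, interval 0.37 to 0.90, adjusted p = 0.00347, edgeR). CDKN2D, the other INK4 member, was read at 17.9 and 22.8 CPM in shANP32B, against 18.3 and 14.4 CPM in shNC. The groups overlapped, and the log2 fold change of 0.31 was not called (SE 0.19, interval -0.100 to 0.72, adjusted p = 0.301, edgeR). It ranged from 0.12 without the second shANP32B library to 0.50 without the first shNC library, and was called in neither case. CDKN1B was read at 61.6 and 72.3 CPM in shANP32B, against 66.7 and 65.5 CPM in shNC, a log2 fold change of 0.018 with an interval of -0.25 to 0.29. The p27 message thus differed between groups by less than it did between the shANP32B replicates. Set against cyclin D3, p18 had 0.859 and 1.07 counts for each CCND3 count in shANP32B and 0.385 and 0.432 in shNC, while set against cyclin D1 the groups overlapped, at 2.06 and 1.72 CCND1 counts for each CDKN2C count in shANP32B and 2.27 and 1.65 in shNC.

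Of the pocket proteins RBL1 was called and RB1 was not, and the difference between them was not tested. RB1 was read at 144 and 159.5 CPM in shANP32B, against 143 and 135 CPM in shNC, just without overlap, and its log2 fold change of 0.13 was not called (SE 0.11, adjusted p = 0.486, edgeR). RBL1, which binds the repressor E2F factors, was read at 27.4 and 33.1 CPM in shANP32B, against 43.3 and 46.2 CPM in shNC. Both shANP32B libraries lay below both shNC libraries, at a log2 fold change of -0.56 (SE 0.14, interval -0.88 to -0.25, adjusted p = 0.0172, edgeR). Without the first shANP32B library it was -0.44 and not called (adjusted p = 0.222; the range over all alternatives was 6.57e-04 to 0.222). RB1 had 5.25 and 4.82 counts for each RBL1 count in shANP32B, against 3.30 and 2.92 in shNC. CCND1, CCND3 and CDKN2C were the members called under all 10 alternatives.

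The LSK comparison covers the same genes in mouse stem and progenitor cells from bone marrow. In KO cells both D1 and D2 read higher in each KO library than in each WT library, D3 differed by less than its error, and Cdk6 read lower, but no member was called: 0 of 10 by edgeR, where 0 of 14598 genes tested were called (0%). Anp32b itself, at a log2 fold change of -1.76 (SE 0.17), had an adjusted p of 0.148 in edgeR. At an unadjusted p under 0.05 there were 2 members by edgeR, Ccnd1 and Ccnd2. The groups did not overlap in 4 of the 10, close to the 33.2% of all genes tested in which they did not. DESeq2 and limma-voom called 0 members as well, with 3 and 2 at an unadjusted p under 0.05. The median log2 fold change of the members was 0.060, against -0.0079 over all genes, and the median size without sign was 0.12, against 0.16. Immunoglobulin genes took 0.530% and 0.655% of counts in KO, against 1.44% and 0.322% in WT, so WT replicate 1 lay apart, and values without it are given where they matter.

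**Figure D3:**
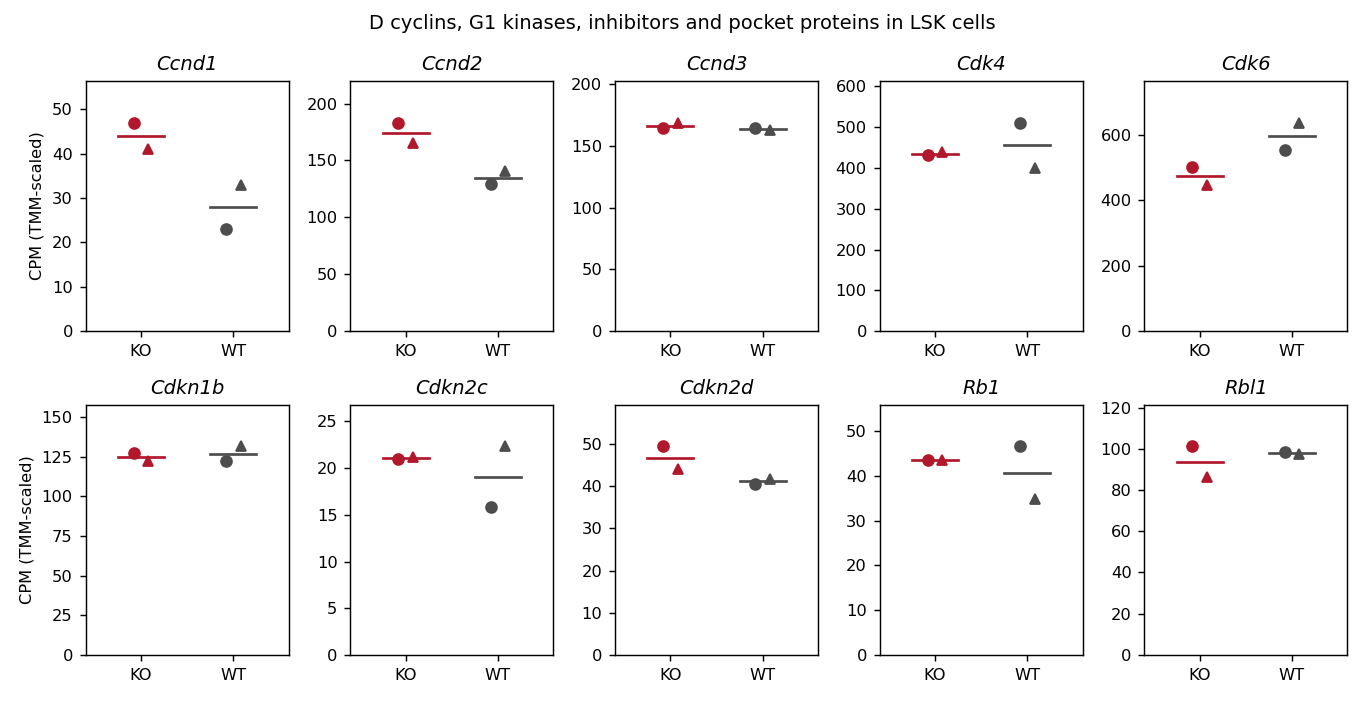
Level of each gene in CPM (vertical axes, each from 0) in the KO and WT libraries of LSK cells. Circles are replicate 1, triangles replicate 2 and lines group means; no gene was called. The groups do not overlap in 4 genes, Ccnd1, Ccnd2, Cdk6 and Cdkn2d, against 33.2% of all genes tested.

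Ccnd1 (GRCm38 chromosome 7, 144929931 to 144939925, minus strand) was read at 46.9 and 41.0 CPM in KO, against 23.0 and 33.0 CPM in WT. The first WT library was the low one, and the groups did not overlap. The log2 fold change was 0.65 (SE 0.20, interval 0.18 to 1.12, adjusted p = 0.986, edgeR), close in size to that of CCND1 in KU812 cells. It was 0.41 without the first WT library and 0.93 without the second, where it was called (adjusted p = 0.0116; the range over all alternatives reached 1.00). Ccnd2 (chromosome 6, 127125162 to 127152193, minus strand) was read at 183 and 165 CPM in KO, against 129.7 and 140.4 CPM in WT. Its log2 fold change was 0.37 (SE 0.14, adjusted p = 0.986, edgeR), and it stayed between 0.29 and 0.44 with any 1 library left out. Ccnd3 (chromosome 17, 47505051 to 47599691, plus strand) was read at 164 and 169 CPM in KO, against 165 and 163 CPM in WT, a log2 fold change of 0.024 with an interval of -0.29 to 0.34.

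The D cyclin sum was 394 and 375 CPM in KO, against 317 and 336 CPM in WT, with no overlap. Shares per kilobase use the length of all annotated exons of a gene, whichever transcripts the cells made. Per kilobase of exon, Ccnd3 made up 38.9% and 42.3% of the D cyclin level in KO, against 50.1% and 45.8% in WT, and Ccnd1 20.7% and 19.1% in KO, against 13.1% and 17.3% in WT. As shares of counts, Ccnd3 made up 41.6% (95% Wilson interval 40.3 to 43.0) and 45.0% (43.7 to 46.4) in KO, against 51.9% (50.5 to 53.3) and 48.4% (46.8 to 50.1) in WT. The share of Ccnd3 was thus lower in both KO libraries although its own level was not.

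Cdk6 (chromosome 5, 3341485 to 3531008, plus strand) was read at 500.2 and 445 CPM in KO, against 553 and 636 CPM in WT. The groups did not overlap, and the log2 fold change of -0.33 was not called (SE 0.16, interval -0.71 to 0.044, adjusted p = 0.986, edgeR). Cdk4 (chromosome 10, 127063534 to 127067920, plus strand) was read at 431 and 439 CPM in KO, against 511 and 401 CPM in WT, and both KO libraries lay between the WT libraries. Cdk4 shares 641 exonic bases (19.7% of its exons) with Tspan31 on the opposite strand, and Ccnd1 shares 1100 (23.4%) with LTO1. Rb1 shares 488 (8.11%) with Rcbtb2 and 408 (6.78%) with Lpar6, and Ccnd3 shares 361 (4.11%) with Bysl, also on opposite strands. Ccnd2 and Cdk6 share smaller parts of their exons with antisense genes. Whether counting used strand is not stated, so reads from those stretches cannot be told apart.

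The mouse inhibitors and pocket proteins differed little. Cdkn1b (chromosome 6, 134920401 to 134925513, plus strand) was read at 127 and 122 CPM in KO, against 123 and 132 CPM in WT, with overlap. Cdkn2c (chromosome 4, 109660876 to 109667189, minus strand) was read at 21.0 and 21.2 CPM in KO, against 15.9 and 22.3 CPM in WT. Its KO libraries lay between the WT libraries, and its log2 fold change was 0.15 with all libraries and -0.086 without the first WT library. Cdkn2d (chromosome 9, 21288410 to 21291407, minus strand) was read at 49.5 and 44.0 CPM in KO, against 40.6 and 41.8 CPM in WT, without overlap but at a log2 fold change of 0.18 (interval -0.15 to 0.51). Rb1 (chromosome 14, 73183673 to 73325822, minus strand) was read at 43.7 and 43.6 CPM in KO, against 46.6 and 34.9 CPM in WT. Rbl1 (chromosome 2, 157145893 to 157204534, minus strand), the gene whose promoter carries the E2F word, was read at 101 and 86.5 CPM in KO, against 98.6 and 97.5 CPM in WT. In both pocket proteins the groups overlapped.

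Mouse exon lengths give an order of the levels of the genes, in CPM per kilobase of exon. The length of a gene was that of all its annotated exons joined, over every transcript. Which transcripts the cells used was not measured, so the order depends on the annotation. Cdk4 stood highest, at 134 ± 1.78 in KO and 140.3 ± 24.0 in WT, followed by Cdk6 at 33.8 ± 2.78 in KO and 42.5 ± 4.19 in WT (SD, n = 2 each). Cdkn1b and Cdkn2d came next, at 27.4 and 29.7 in KO and 27.9 and 26.2 in WT, with library values that overlapped each other. Ccnd3 stood at 19.0 in KO and 18.6 in WT, Rbl1 at 15.7 in KO and 16.4 in WT, and Ccnd2 at 18.5 in KO and 14.4 in WT; the library values of Ccnd2 overlapped those of both Rbl1 and Ccnd3. The lowest were Cdkn2c, Rb1 and Ccnd1, at 7.85, 7.26 and 9.33 in KO and 7.11, 6.78 and 5.95 in WT, with library values that overlapped between Cdkn2c and Rb1 and between Rb1 and Ccnd1, and with Cdkn2c apart from Ccnd2 above it. By this measure Cdk4 stood several times above each D cyclin and INK4 inhibitor measured here, with the same limit. Human exon lengths were not used here, so KU812 levels are not ordered between genes.

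**Figure D4:**
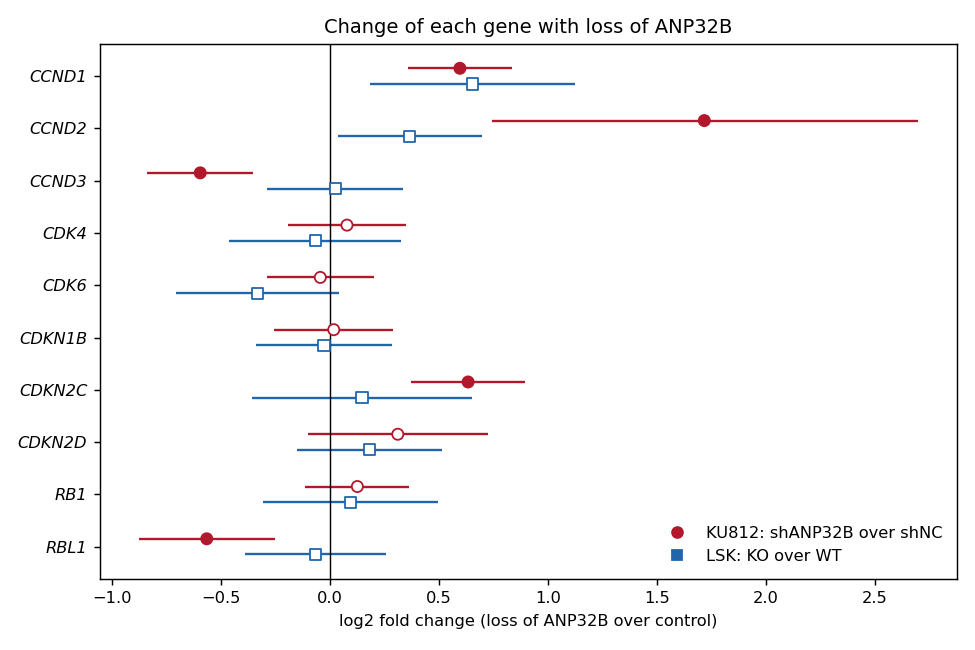
Log2 fold change of each gene with loss of ANP32B (horizontal axis) in KU812 cells (circles, shANP32B over shNC) and LSK cells (squares, KO over WT), with 95% confidence intervals as lines. Filled symbols were called at an adjusted p under 0.05; CCND1 lies at 0.60 in KU812 cells and 0.65 in LSK cells, while CCND3 lies at -0.59 in KU812 cells and 0.024 in LSK cells.

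Whether the 2 experiments differed was tested as an interaction over 10771 genes with a shared symbol. It called 0 of the 10 members, where 2.22% of all genes tested were called, with 3 members at an unadjusted p under 0.05. limma-voom called 0 and DESeq2 2, CCND2 and CCND3. The change of CCND2 was 1.36 higher on the log2 scale in KU812 than in LSK cells (SE 0.37, adjusted p = 0.0815, edgeR), and that of CCND3 stood at -0.60 (SE 0.16, adjusted p = 0.0837, edgeR). For RBL1 the difference was -0.48 (adjusted p = 0.225) and for CDKN2C 0.50 (adjusted p = 0.302, edgeR). For CCND1 it was -0.042 with an interval of -0.56 to 0.48, which is too wide to show that the experiments were alike. The experiments differed at once in species, cell type and means of ANP32B loss, so the parts of these cannot be told apart.

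The rest of the pathway was followed in 8 lists of genes around the members. In KU812 cells 31 of 77 tested genes were called, 7 higher and 24 lower, where 16.6% of all genes were called, 7.53% higher and 9.06% lower, with a median log2 fold change of -0.23 against 0.0041 over all genes. That count moved with the library left out, and so did the count over all genes. In LSK cells 0 of 75 tested genes were called by edgeR or DESeq2, with 1 at an unadjusted p under 0.05 and a median of -0.026. Some were called with the second WT library left out, where many genes outside the pathway were called too.

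Of 4 other tested inhibitors of cyclin-dependent kinases 2 rose in KU812 cells, CDKN2A and CDKN3, and none fell, with a list median of 0.50. Of all genes tested 7.53% were called higher and 9.06% lower. CDKN2A, which encodes the INK4 protein p16 and, in another frame, ARF, was read at 32.3 and 29.3 CPM in shANP32B, against 16.0 and 17.9 CPM in shNC, a log2 fold change of 0.86 (SE 0.16, adjusted p = 0.00263, edgeR). It kept its call under all 10 alternatives. Counts per gene cannot tell p16 from ARF. CDKN2B, the INK4 protein p15, was read at 8.72 and 9.16 CPM in shANP32B, against 6.40 and 6.59 CPM in shNC, without overlap and not called (log2 fold change 0.46, adjusted p = 0.206, edgeR). Of the 4 INK4 genes, CDKN2A and CDKN2C were called. CDKN3, a phosphatase that acts on CDK2, rose by 0.55 on the log2 scale. CDKN1A (p21) was read at 47.7 and 76.3 CPM in shANP32B, against 62.3 and 80.7 CPM in shNC. Its groups overlapped, and its log2 fold change was -0.21 (adjusted p = 0.509, edgeR). Its direction and call depended on the library left out: it was 0.089 without the first shANP32B library, and it was called lower without the second shANP32B library (-0.60, adjusted p = 0.0477) or without the first shNC library (-0.39, adjusted p = 0.0292), in a range of adjusted p up to 0.948.

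Genes of the S phase, downstream of the pocket proteins, were mostly lower. Of the E2F target list 14 of 20 were called, all lower, with a median of -0.48 in KU812 cells. Counts in this paragraph are to be read beside all genes tested, of which 16.6% were called, 7.53% higher and 9.06% lower. The replication licensing genes CDT1, MCM6 and MCM3 had log2 fold changes of -0.79, -0.70 and -0.52, and the origin recognition gene ORC1 -0.76. A fall of replication genes in these libraries was known when the list was made, so this count is no independent evidence. E2F1, an activating E2F factor, was read at 24.0 and 24.7 CPM in shANP32B, against 36.5 and 34.3 CPM in shNC (log2 fold change -0.54), the only call among 11 E2F, DP and p130 genes. CDK2, the kinase that follows CDK4 and CDK6, was read at 41.7 and 34.3 CPM in shANP32B, against 51.2 and 58.2 CPM in shNC (-0.53), the only call among 4 genes of the cyclin E step. Of the 7 MuvB, MYBL2 and FOXM1 genes 1 was called, RBBP4, a histone-binding subunit, at -0.32. The calls of CDKN3, E2F1 and RBBP4 were lost without either shANP32B library, and that of CDK2 without the second. RBBP4 was also lost when libraries were scaled by their totals alone.

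**Figure D5:**
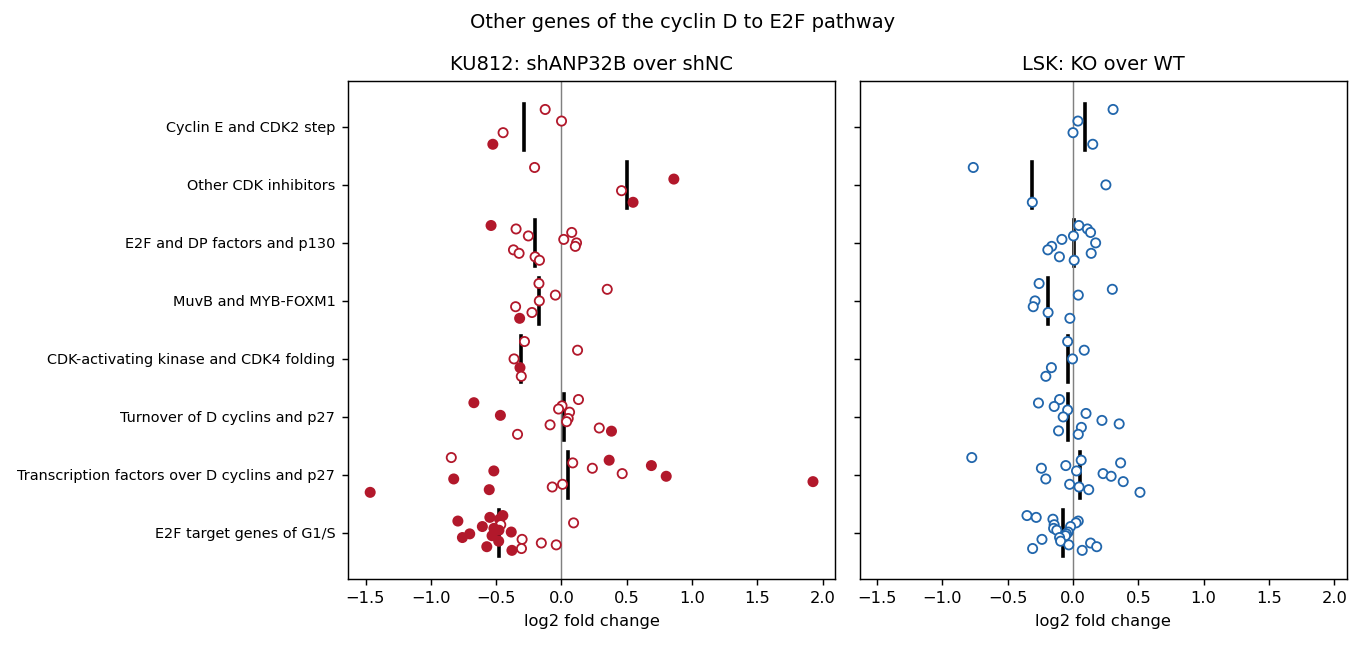
Log2 fold change (horizontal axes) of each tested gene in the 8 lists around the members, in KU812 cells on the left and LSK cells on the right. Filled circles were called at an adjusted p under 0.05 and black bars are list medians; the E2F target list has its median at -0.48 in KU812 cells and -0.077 in LSK cells.

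Genes that act on the members were followed in 3 of the lists, to be read beside the 16.6% of all genes called. Of 14 transcription factors known to act on D cyclin or p27 genes, 4 rose and 4 fell in KU812 cells. MYC was read at 670 and 519 CPM in shANP32B, against 1088 and 1017 CPM in shNC (log2 fold change -0.82, SE 0.12, adjusted p = 0.00045, edgeR), while MYCN, its relative, rose at a low level, with 6.41 and 5.69 CPM in shANP32B, against 1.82 and 1.34 CPM in shNC. STAT5B, a factor that BCR-ABL activates, fell by 0.55. STAT5A, the other STAT5 gene on the list, was read at 482 and 428 CPM in shANP32B, against 463 and 493 CPM in shNC. Its groups overlapped, and its log2 fold change of -0.070 was not called. ETS1 rose by 0.69. Whether these factors acted on the members was not tested. Of 12 genes of D cyclin and p27 turnover 1 rose and 2 fell, where 7.53% of all genes tested were called higher and 9.06% lower. The difference in share was not tested. CKS1B, the cofactor by which SKP2 recognises p27, was read at 33.8 and 36.9 CPM in shANP32B, against 54.5 and 58.0 CPM in shNC (-0.67), and DDB1, the adaptor of the ligase that destroys D cyclins, fell by 0.47. SKP1 rose by 0.38, a call lost without the first shNC library or either shANP32B library. Of 5 genes of CDK activation and CDK4 folding 1 was called, the chaperone HSP90AB1, at -0.32, and it was lost without either shANP32B library.

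In LSK cells the same genes, where listed, had log2 fold changes from -0.76 (Cdkn1a) to 0.38 (Mycn), none of them called. Cdkn1a was read at 114 and 86.3 CPM in KO, against 247 and 92.1 CPM in WT, so its value rested on the first WT library: the log2 fold change was 0.12 without it and -1.31 without the second, where it was called (adjusted p = 5.26e-04, edgeR; the range over all alternatives reached 1.00). Mycn was read at 26.2 and 25.2 CPM in KO, against 11.8 and 28.0 CPM in WT, and its value too turned on the WT libraries: it was -0.12 without the first and 1.12 without the second, where it was called (adjusted p = 0.0105, edgeR; the range over all alternatives reached 1.00). Myc stood at 328 and 329.8 CPM in KO, against 285 and 475 CPM in WT, and E2f1 at 58.7 and 63.9 CPM in KO, against 58.5 and 60.5 CPM in WT, with overlap in each.

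Markers of other cells differed beside some of these values. Their calls in KU812 cells are to be read beside all genes tested, of which 7.53% were called higher and 9.06% lower. Of 5 erythroblast markers in KU812 cells 3 fell (EPOR, KLF1 and ALAS2), and the sum of all 5 was 453 and 438 CPM in shANP32B, against 576 and 646 CPM in shNC. Of 5 listed markers of neutrophils and monocytes 2 rose (S100A8 and S100A9), and all 5 summed to 94.1 and 71.3 CPM in shANP32B, against 97.5 and 76.6 CPM in shNC. Most of that sum was ITGAM, which was not called. The 2 that rose were low: S100A8 stood at 7.10 and 6.33 CPM in shANP32B, against 0.93 and 1.38 CPM in shNC. S100A9 stood at 4.01 and 3.03 CPM in shANP32B, against 0.64 and 0.77 CPM in shNC. The 8 KU812 features, of which CPA3 rose, summed to 5093 and 5024 CPM in shANP32B, against 4621 and 4287 CPM in shNC. T and NK markers (3 of 5 listed, of which NKG7 fell) summed to 6.14 and 6.86 CPM in shANP32B, against 11.6 and 11.8 CPM in shNC. NKG7 stood at 0.15 and 0.24 CPM in shANP32B, near the floor of 3 counts, against 1.07 and 2.03 CPM in shNC. B cell markers (2 of 5 listed) summed to 8.37 and 7.75 CPM in shANP32B, against 8.80 and 7.89 CPM in shNC. Stromal and endothelial markers (3 of 5 listed) summed to 140.03 and 137 CPM in shANP32B, against 133 and 127 CPM in shNC. In LSK cells the 6 neutrophil and monocyte markers summed to 898 and 806 CPM in KO, against 1216 and 1149 CPM in WT, and the 5 stromal and endothelial markers to 148 and 131 CPM in KO, against 200.4 and 169.8 CPM in WT, with no marker called. The 8 genes of the LSK gate summed to 2025 and 1924 CPM in KO, against 2168 and 1835 CPM in WT. T and NK markers (4 of 5 listed) summed to 88.5 and 118 CPM in KO, against 121 and 91.9 CPM in WT, mostly Nkg7, while Cd3e stood at 0.57 and 1.40 CPM in KO, against 2.56 and 1.34 CPM in WT. B cell markers summed to 25.8 and 31.2 CPM in KO, against 37.2 and 26.6 CPM in WT, and erythroblast markers (4 of 5 listed) to 27.4 and 48.9 CPM in KO, against 16.9 and 39.1 CPM in WT. The part of other cells in the values of the 10 genes was not tested.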

How the data were processed

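RNA was measured in 4 KU812 and 4 LSK libraries made from 1 ug of total RNA, per the labels' protocols. The authors deposited raw gene counts by symbol, 1 table per library. The builds GRCm38 and GRCh38 and the programs TopHat, HISAT2, Cufflinks and DESeq stand in the submitters' processing notes, without roles or versions; counting tool, strand setting and annotation are not stated. Genes under 10 counts over the 4 libraries of an experiment are absent from the tables. A floor of 3 counts is 0.106 to 0.284 CPM.

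Each experiment was fitted with edgeR 4.0.16 in R 4.3.3 (filterByExpr, TMM, quasi-likelihood test, threshold 0.05). Fold changes are edgeR's moderated values; the SE is the unmoderated coefficient over the square root of F. The interaction used all 8 libraries and 10855 shared symbols. Alternatives were DESeq2 1.42.0, limma-voom 3.58.1, other scalings, no filter, each library left out and a replicate block. The test code was also run on simulated counts, a check of the code whose results are not given and lend no weight to the calls.

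All 10 members are named, with up to 4 called genes per list by smallest p, and CDKN1A, CDKN2A and CDKN2B. STAT5A is given beside STAT5B. Skp1, Cdkn2a and Cdkn2b are not listed under these symbols in the LSK count tables, so they were not analysed there. Whether they had too few counts or another symbol was not examined. Members and lists were chosen with earlier results of these data known. Mouse coordinates and exon lengths come from GENCODE on GRCm38, and promoters from RefSeq.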

Additional observations from a re-analysis of the deposited data

How the results depend on the processing

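In KU812 cells CCND1, CCND3, CDKN2C and CDKN2A kept direction and call under all 10 alternatives. With 1 library left out, 3 to 5 of the 10 members, 16 to 40 pathway genes and 1413 to 4047 of all genes were called; in LSK cells 0 to 1 members, 0 to 6 pathway genes and 0 to 830 of all genes; and for the interaction 0 members and 38 to 719 of all genes. The single LSK member, Ccnd1, all 6 LSK pathway calls (Mycn and Cdkn1a among them) and the 830 LSK genes came without the second WT library. Numbers of replicates do not pair the libraries by the labels: deviations of same-numbered libraries correlated at 0.15 in KU812 and -0.075 in LSK cells. With the replicate block 4164 genes were called in KU812 cells and 15 in LSK cells, with 5 and 0 members, and 1 member, CCND2, in the interaction. DESeq2 called 15 genes in LSK cells and, for the interaction, 577 genes and 2 members. Scaling by library totals moved the median of all KU812 genes by 0.055 (log2) and the split of calls to 1474 higher and 1182 lower, against 1244 higher and 1497 lower. It turned the sign of CDK6 in KU812 cells (0.012) and of Cdkn1b (0.020) and Rbbp4 (0.023) in LSK cells.

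Log2 fold changes that changed sign with 1 library left out, none of them called with all libraries, had these ranges. In KU812 cells CDK4 ran from -0.084 to 0.24, CDK6 from -0.22 to 0.10, CDKN1B from -0.11 to 0.12 and CDKN1A from -0.60 to 0.089. In LSK cells Cdk4 ran from -0.23 to 0.12, Cdkn1b from -0.080 to 0.023, Cdkn2c from -0.086 to 0.41, Rb1 from -0.098 to 0.32, Rbl1 from -0.18 to 0.045, Cdk2 from -0.017 to 0.33, E2f1 from -0.019 to 0.10, Rbbp4 from -0.14 to 0.091, Ddb1 from -0.22 to 0.084, Myc from -0.53 to 0.20, Mycn from -0.12 to 1.12, Ets1 from -0.27 to 0.20, Mcm6 from -0.16 to 0.068, Orc1 from -0.24 to 0.027 and Cdkn1a from -1.31 to 0.12. The interaction ran from -0.32 to 0.21 for CCND1, -0.011 to 0.33 for CDK4, -0.061 to 0.18 for CDKN1B, -0.040 to 0.35 for CDKN2D and -0.17 to 0.24 for RB1. The cause of these changes was not tested. With 1 library in a group, that library is assumed to vary like the other group.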
